A study of Mustela putorius furo with 8 samples.

Results

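The insulin-like growth factor binding proteins measured here were the 6 genes IGFBP2 to IGFBP7, taken by gene symbol from the 27912 genes counted in single cells of ferret pancreatic ductal epithelium (PDE). All 6 had at least 30 unique molecular identifiers (UMIs, tags that each mark a captured RNA molecule) over the 8 libraries and were kept. Cells came from the pancreata of ferrets 1 to 3 days old and were passaged 10 times before growth at an air-liquid interface (ALI), where they polarise. Wild-type (WT) cultures and cultures of the CFTR KO/KO genotype (CF), a knockout of the chloride and bicarbonate channel mutated in cystic fibrosis, were each sampled after 2, 5, 7 and 9 days. Each genotype and day had 1 library, and per the study 3 donors of a genotype were pooled, so no spread between animals could be estimated. No test was run, differences between genotypes are given day by day as values, and all intervals cover counting error only.

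IGFBPs are secreted proteins that bind IGF1 and IGF2 outside the cell, hold them away from the IGF1 receptor or release them near it when a protease cuts the binding protein. IGFBP3 is the main carrier in serum, where it forms a ternary complex with IGF and the acid labile subunit. IGFBP2 and IGFBP5 also bind extracellular matrix or integrins, IGFBP4 is the classical substrate of the protease PAPP-A, and IGFBP6 prefers IGF2. IGFBP7 binds IGFs weakly, is deposited in basement membrane, and is known as a product of senescent, stromal and vascular cells. The comparisons ask which of these carriers a polarising duct epithelium transcribes, whether the CFTR genotype changes that, and in which cells.

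Levels are given as CPM, the UMIs of a gene divided by all UMIs of the retained cells of a library, times 1e6. UMIs were not divided by gene length, so levels are compared within a gene, and where the UMIs of a pair of genes are given as a ratio, only its change between libraries or clusters is read. The libraries held 34735952 to 114585136 UMIs in 1607 to 6224 retained cells, with a median of 14949 to 23427 UMIs per cell. On days 2, 5, 7 and 9 the median percent of mitochondrial UMIs was 9.17, 6.63, 10.7 and 10.3 in WT. In CF it was 7.04, 6.76, 5.71 and 5.65, and the part of this in the results was not tested. The deposited annotation placed the cells in 41 WT and 30 CF clusters, found separately by genotype, and in 6 classes. Pairs of libraries shared at most 19 cell barcodes, 14 of them among retained cells. CFTR itself was at 6.57, 16.9, 15.9 and 29.5 CPM in WT on days 2, 5, 7 and 9 and at 2.5, 8.69, 11.1 and 11.4 CPM in CF. The position of the disrupted sequence relative to the counted transcript end is not given in the sources used here, and the study's methods describe the KO/KO animals as making no CFTR mRNA. CFTR UMIs were nevertheless counted in all 4 CF libraries, 256 to 621 of them, at a lower CPM than in WT on each day. These counts therefore do not settle the genotype, and CF stands here for the libraries labelled so. The epithelial label held, since all 4 epithelial markers of the fixed list had UMIs in every library, at a summed 1613 to 2750 CPM. The 5 endothelial markers summed to 0.08 to 0.259 CPM, with 4 to 13 UMIs of VWF in each library and CDH5 and CLDN5 at 0 in all 8. The 5 leukocyte markers summed to 4.32 to 13.2 CPM in WT and 4.98 to 21.8 in CF, nearly all of it CD68, a lysosomal protein, and LYZ, lysozyme, while the defining PTPRC had at most 2 UMIs in a library, CD3E at most 1 and CSF1R 0.

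In the RefSeq annotation of the files' build (ASM1176430v1.1), all 6 members are protein coding, and the table names no chromosome for them. IGFBP2 runs from 20883945 to 20908377 on its sequence and IGFBP5, the next entry, from 20914651 to 20935243, a gap of 6273 bases if both lie on the same sequence. IGFBP3 runs from 13093616 to 13098967 and is followed by IGFBP1 from 13106249 to 13110497. IGFBP4 spans 327479 to 341207, IGFBP6 spans 2892557 to 2896195, and IGFBP7 spans 9170807 to 9247921. The interval of IGFBP7 overlaps that of the preceding entry, POLR2B, by 85 bases if both lie on the same sequence, and reads in those bases could belong to either gene.

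The 6 genes fell into 3 patterns. IGFBP3 and IGFBP7 had at least 32889 UMIs each in every library, IGFBP2 was close to 0 in WT and climbed in CF, and IGFBP4, IGFBP5 and IGFBP6 stayed under 2 CPM in every library.

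**Figure D1:**
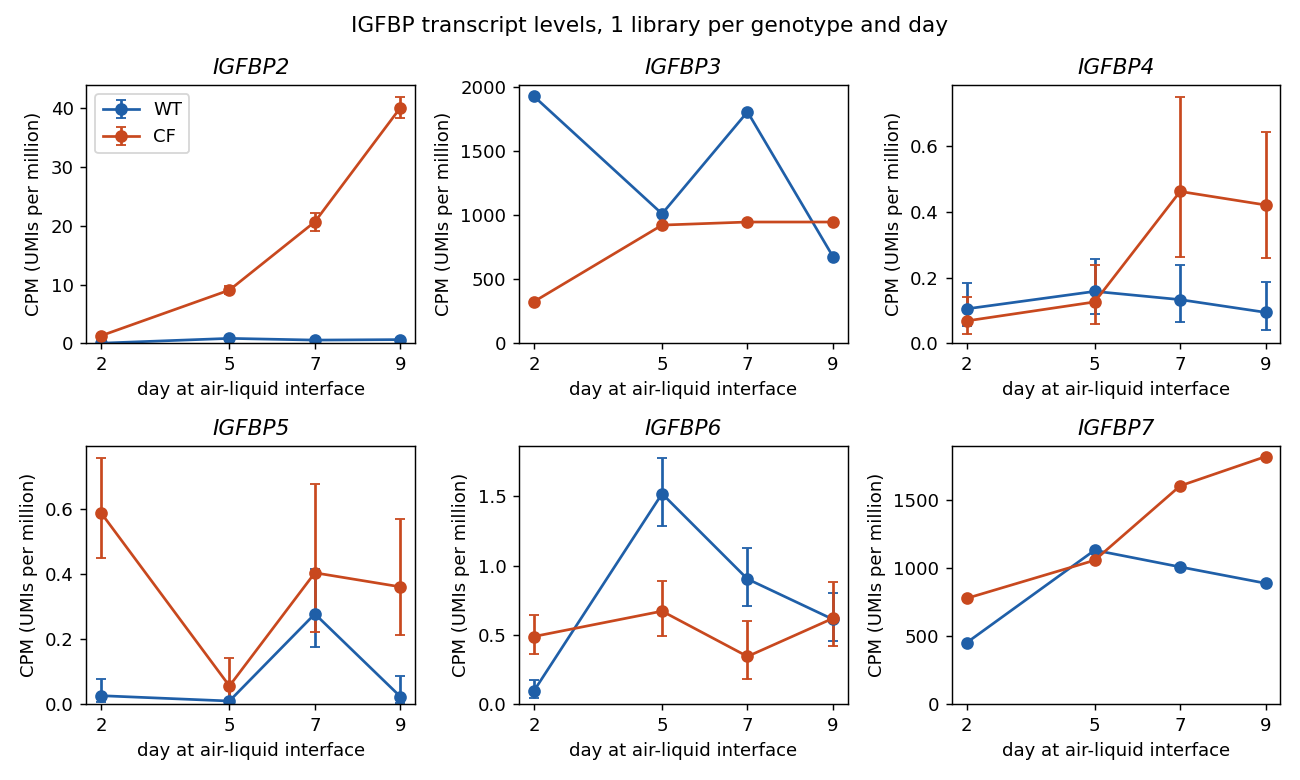
CPM (y axis, linear, starting at 0, a separate scale per gene) of the 6 IGFBP genes against day at the air-liquid interface, WT in blue and CF in orange. Each point is 1 library and bars are 95% Poisson intervals, which are smaller than the points for IGFBP3 and IGFBP7. IGFBP2 climbs in CF from 1.33 to 40.1 CPM while WT stays under 1 CPM, and the IGFBP3 lines cross between days 7 and 9.

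Averaged over the 4 days, IGFBP2 had the largest difference of CF from WT among the 6 members, 3.00 on the log2(CPM + 1) scale, although on day 2 IGFBP3 lay further apart, at -2.56 against 1.15. In WT it had 6, 88, 48 and 56 UMIs on days 2, 5, 7 and 9, or 0.0524, 0.87, 0.579 and 0.661 CPM. The CF libraries held 136, 650, 718 and 2004 UMIs, or 1.33, 9.09, 20.7 and 40.1 CPM. Every CF library was above every WT library, and the CF level was higher on each later day. The ratio of CF to WT was 25.4 on day 2 (95% interval 11.4 to 70.4), 10.5 on day 5 (8.36 to 13.2), 35.7 on day 7 (26.7 to 48.9) and 60.7 on day 9 (46.5 to 80.6). On the log2(CPM + 1) scale, where the pseudocount of 1 CPM shrinks the change of low genes, the differences were 1.15, 2.43, 3.78 and 4.63.

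A gene was called when CF and WT differed at least 2-fold on that scale. Of the 15921 genes with at least 30 UMIs, 3.59% were called higher in CF on day 2, 2.15% on day 5, 4.47% on day 7 and 3.23% on day 9, and 3.83%, 4.13%, 2.95% and 3.42% were called lower on the same days. Of the 6 members, 1 was called higher on each of days 2, 5 and 7, IGFBP2, and 2 on day 9, IGFBP2 and IGFBP7. IGFBP3 on day 2 was the 1 member called lower on any day. Called higher on all 4 days were 0.98% of genes, IGFBP2 among them, and called lower on all 4 days were 1.31%, with 0 members.

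The rise of IGFBP2 over time was 30.2-fold in CF from day 2 to day 9 (95% interval 25.3 to 36.1). In WT the same ratio was 12.6 (5.45 to 35.8), from a start of 6 UMIs, and nearly all of it lay between days 2 and 5. Between days 5 and 9, when CF went from 9.09 to 40.1 CPM, WT went from 0.87 to 0.661 CPM.

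IGFBP2 UMIs were found in a small share of CF cells, and the part of free RNA in that share was not tested. After each cell was thinned to 3000 UMIs, IGFBP2 was seen in 0.605%, 2.74%, 5.77% and 8.26% of CF cells on days 2, 5, 7 and 9, against 0.0163%, 0.135%, 0.132% and 0.208% of WT cells. At full depth 2.49%, 12.4%, 16.9% and 20.2% of cells had it in CF and 0.0964%, 1.33%, 0.928% and 0.923% in WT. Thinning left out the 39 to 411 CF cells and 73 to 150 WT cells per library with fewer UMIs. On day 9 in CF, the 10% of cells with most IGFBP2 UMIs held 85.2% of them, and the highest cell had 47.

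Those cells lay in a few clusters. CF cluster 3 (673 cells) had 75.7 CPM (95% interval 71.2 to 80.4), CF cluster 16 (354 cells) 67.8 CPM (62.1 to 73.9) and CF cluster 11 (401 cells) 64.9 CPM (60 to 70), and the 3 held 63.7% of the IGFBP2 UMIs of CF in 12.6% of its cells. Pooled over days, clusters 16 and 11 did not differ beyond counting error, and 66.3% of the cells of cluster 11 and 33.3% of those of cluster 16 came from day 9. On day 7 cluster 16 was at 61.9 CPM (54.7 to 69.9) and cluster 11 at 19 (14.9 to 23.8), and on day 9 clusters 3, 11 and 16 were level at 92.6, 93.8 and 93.4 CPM. The 9 CF clusters at or above 10 CPM were all deposited as centroacinar, a duct-terminal cell type that reaches into the acinus, though 14 of the 29 CF clusters of at least 50 cells carry that name and the other 5 had 0.27 to 3.32 CPM. Of the 9, clusters 13, 23 and 27 are shallow and did not keep the name, and cluster 11 was led by ACTA2, COL1A1 and COL1A2, markers of fibroblast and stellate cells. None of the 9 had a marker of the centroacinar list among its 10 leading genes, so the name is given as deposited. At the other end, CF cluster 4, deposited as centroacinar progenitor, had 1 UMI in 626 cells, and 0 of its 624 thinned cells had one. A limit of 3 counts allows a share of up to 0.481% of cells with a UMI at this depth. The Clopper-Pearson interval reaches 0.589%. Neither sets a limit on cells that express the gene. In CF cluster 3 the thinned share was 16.2% (95% Clopper-Pearson interval 13.5 to 19.2), with a median of 19311 UMIs per cell against 21206 in cluster 4. IGFBP2 was 1 of the 10 genes that led CF cluster 16, so its level there is a description of that cluster.

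**Figure D2:**
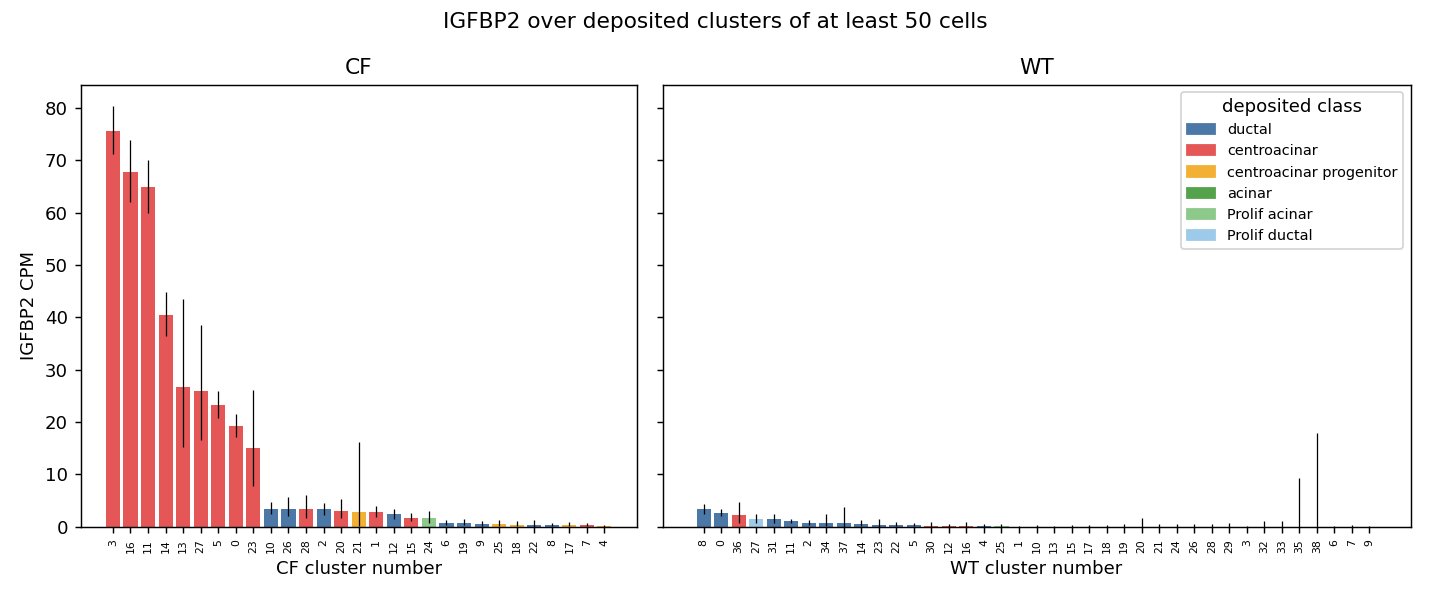
IGFBP2 CPM (y axis, linear) in each deposited cluster of at least 50 cells, CF on the left and WT on the right on the same scale, ordered by level and coloured by deposited class. Bars are pooled over the 4 days and lines are 95% Poisson intervals. The 9 highest CF clusters are deposited as centroacinar, and the highest WT cluster is at 3.34 CPM.

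In WT no cluster of at least 50 cells passed 3.34 CPM, and 21 of 39 had 0 IGFBP2 UMIs. The highest were clusters 8, 0 and 36, at 3.34, 2.69 and 2.18 CPM, which did not differ beyond counting error. Clusters 8 and 0 are among the 12 WT clusters in which SOX2, a transcription factor of foregut and stem-like epithelium, was under 10 CPM. This limit was set after the values were seen. SOX2 was at least 50.6 CPM in the other WT clusters and at most 1.08 CPM in every CF cluster. Comparisons of whole CF and WT libraries thus also compare SOX2 states, and the part of this was not tested. SOX2-low WT cells had more IGFBP2 than the other WT cells, 1.62 against 0.237 CPM on day 5, 1.26 against 0.221 on day 7 and 1.82 against 0.153 on day 9. CF stayed above the SOX2-low WT cells on each day, by 9.76-fold on day 2 (95% interval 2.65 to 81.4, from 2 WT UMIs), 5.63-fold on day 5, 16.4-fold on day 7 and 22-fold on day 9.

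Within 3 CF clusters, IGFBP2 was higher on day 9 than on day 7 beyond counting error. Of 9 CF clusters with at least 50 cells on both days 7 and 9, all 9 were higher on day 9, by a median of 0.59 on the log2(CPM + 1) scale. The intervals of the 2 days were apart in 3 of the 9, namely CF cluster 3, at 35.1 CPM on day 7, CF cluster 11, at 19, and CF cluster 16, at 61.9, and in the other 6 they overlapped. Of the 6 that overlapped, clusters 21, 18 and 19 had 1, 4 and 6 IGFBP2 UMIs over all days. All 9 clusters drew on the same libraries of days 7 and 9. From day 5 to day 7 no such shift was seen, with 2 of 6 CF clusters higher, 3 lower and a median of -0.01. By class, restricted to the 58 of 71 clusters that kept their deposited name (6 lost it for leading markers of a different class and 7 for low depth with no leading marker of their own, while 44 of the 58 also had 0 leading markers of their own class), CF centroacinar cells had 15.8, 33.6 and 51.3 CPM on days 5, 7 and 9. Fibroblast and stellate markers were not among the class lists, so this class includes CF cluster 11, and without that cluster, an alternative chosen after the values were seen, it had 15.6, 37.1 and 43.3 CPM. WT centroacinar cells had 0 UMIs on day 5, which makes CF at least 69.1-fold higher against a floor of 3 counts. On days 7 and 9 WT was at 0.429 and 0.144 CPM. The WT clusters highest in IGFBP2, 8 and 0, are deposited as ductal. Over all classes, CF was 5.63-fold above the SOX2-low WT cells on day 5. In ductal cells CF was at 1.81 CPM against 0.0665 in WT on day 2, a ratio of 27.2 (11.1 to 86.3), and at 3.43 against 1.28 on day 5, a ratio of 2.68 (1.84 to 3.87). On days 7 and 9 the ductal levels were 1.06 against 1.01 and 4.2 against 1.54 CPM, and both intervals of the ratio spanned 1 (0.209 to 3.3 and 0.849 to 6.78). The CF values rest on 3 and 5 UMIs in 88 and 51 cells, and when no cluster was set aside for its name they were 0.641 and 1.58 CPM, or 0.645 and 1.05 times WT. CF clusters 3, 11, 16 and 14 held 30.1%, 18.8%, 14.8% and 10.4% of the IGFBP2 UMIs of CF, and since clusters were found separately by genotype they cannot be matched to WT clusters by number.

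IGFBP3, the serum carrier and a gene with growth-restraining activity in epithelium, was the most variable of the abundant pair. In WT it stood at 1927, 1011, 1806 and 678 CPM on days 2, 5, 7 and 9. In CF it stood at 326, 923, 947 and 947 CPM. WT was highest on day 2 and lowest on day 9 with a return on day 7, whereas CF was lowest on day 2 and then level. WT was 5.92-fold above CF on day 2 (95% interval 5.85 to 5.98), 1.1-fold on day 5 (1.09 to 1.11) and 1.91-fold on day 7 (1.89 to 1.93), and CF was 1.4-fold above WT on day 9 (1.38 to 1.41). On day 2 the leukocyte list was also furthest apart, at 21.8 CPM in CF against 4.32 in WT, through CD68 at 20.9 against 3.88, and its part in the result was not tested. The intervals of the ratios are narrow because each library held 32889 to 220778 IGFBP3 UMIs, and they say nothing of how far another culture would lie.

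From day 2 to day 9, IGFBP3 changed by -1.50 on the log2(CPM + 1) scale in WT and by 1.54 in CF. Of all 15921 genes, 7.36% were at least 2-fold higher on day 9 than on day 2 in WT, with 0 members, and 4.77% were lower, with IGFBP3 as the 1 member. In CF 6.04% were higher, with IGFBP2, IGFBP3 and IGFBP7, and 2.5% were lower, with 0 members.

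The thinned share of cells with IGFBP3 was highest in WT on day 2 and lowest in WT on day 9. After thinning, a UMI was found on days 2, 5, 7 and 9 in 72.1%, 59%, 63% and 39.9% of the WT cells. The CF shares were 45.3%, 64.9%, 62.4% and 55.3%. Without thinning the WT cells gave 88.6%, 80%, 80.8% and 62.1%. The CF cells then gave 77%, 89.2%, 76.4% and 71.7%. CF on day 5 and WT on day 2 were then highest and did not differ beyond counting error. The part of free RNA was not tested. On day 9 in WT, the 10% of cells with most IGFBP3 held 61.6% of its UMIs, against 34.6% on day 2.

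Between clusters IGFBP3 ranged more widely than between libraries, from 28.9 to 6122 CPM in WT and from 32.2 to 2279 CPM in CF. The highest WT clusters were 14, 4 and 23, at 6122, 4103 and 3590 CPM, all deposited as ductal. The highest CF clusters were 16, 0 and 3, at 2279, 2068 and 1983 CPM, all deposited as centroacinar, and IGFBP3 was 1 of the 10 genes that led CF cluster 0. Pooled over days, the 3 intervals did not overlap within either genotype, and on day 7 those of CF clusters 16 and 0 did, at 1956 and 2006 CPM. The lowest were WT cluster 17, whose leading genes included the trefoil factors TFF1 and TFF2 and the antimicrobial LTF, and CF cluster 7, led by WFDC2, TFF1 and TFF2. In WT cluster 14, 99.5% of thinned cells had an IGFBP3 UMI, against 7.16% in WT cluster 17, with medians of 13397 and 16338 UMIs per cell.

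By class, IGFBP3 was lower in CF than in WT in ductal cells on each day, at 479 against 2215 CPM on day 2, 551 against 1504 on day 5, 375 against 2691 on day 7 and 421 against 1433 on day 9. The CF values of days 7 and 9 rest on 88 and 51 cells. When no cluster was set aside for its name they were 237 and 173 CPM, from 176 and 284 cells. The WT ductal class mixes SOX2-low clusters with others. On day 2 the SOX2-low WT cells of all classes had 122 CPM, below the CF ductal cells. On days 5, 7 and 9 they had 828, 909 and 723 CPM, above the CF ductal cells. In centroacinar cells CF was above WT on days 5 and 9, at 1478 against 550 and 1181 against 220 CPM. On day 7 WT was above CF, at 2286 against 1468. WT cluster 12 set the direction of day 7, with 23425 of the 26623 UMIs, and without it, an alternative chosen after the values were seen, WT was at 589 CPM and below CF. On days 5 and 9 WT fell to 161 and 156 CPM without it, and CF minus WT on the log2(CPM + 1) scale went from 1.42 to 3.19 and from 2.42 to 2.92. Without CF cluster 11, CF was at 1478, 1625 and 1174 CPM on days 5, 7 and 9. Centroacinar progenitors were low in both genotypes, at 40.3 to 116 CPM in CF and 97.8 to 290 CPM in WT. Different clusters make up each class in the 2 genotypes: in CF, clusters 0, 3 and 5 held 17.3%, 15.4% and 13.4% of the IGFBP3 UMIs, all deposited as centroacinar, and in WT clusters 14, 6 and 4 held 12.3%, 11.3% and 11%, all deposited as ductal.

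Pooled over clusters, SOX2-low and other WT cells differed in IGFBP3 on day 2. SOX2-low WT cells, 14.3% of WT cells on that day, had 122 CPM and the other WT cells had 2192. Single clusters could be closer. Cluster 13, with SOX2 at 103 CPM and 98.4% of its cells from day 2, had 199 CPM of IGFBP3. SOX2-low cluster 19, led by ISG15 and IFIT3 and with 97.5% of its cells from day 2, had 172 CPM. On days 5, 7 and 9 the SOX2-low cells had 828, 909 and 723 CPM, and the others 1166, 2279 and 659. As a pool, the SOX2-low WT cells thus ran low and then level, and CF was at 326, 923, 947 and 947 CPM. The make-up of the pool differed between days. SOX2-low clusters 8 and 17, with 98.9% and 67.3% of their cells from day 9, had 1193 and 28.9 CPM. The part of this was not tested. Against the SOX2-low cells alone, the difference of CF from WT turned positive on days 2, 5 and 7, at 1.40, 0.16 and 0.06 on the log2(CPM + 1) scale.

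IGFBP7, the matrix-bound member, was at 451, 1131, 1008 and 888 CPM in WT and at 777, 1057, 1603 and 1818 CPM in CF on days 2, 5, 7 and 9. WT peaked on day 5 and then slipped, and CF was higher on each later day. CF was 1.72-fold above WT on day 2 (95% interval 1.7 to 1.74), 1.59-fold on day 7 (1.57 to 1.61) and 2.05-fold on day 9 (2.03 to 2.07), and WT was 1.07-fold above CF on day 5 (1.06 to 1.08). Against the SOX2-low WT cells alone the direction of day 2 turned, with CF at 0.553 times their level, and CF was at 0.774, 1.2 and 1.31 times their level on days 5, 7 and 9. A UMI was found in 59.5% to 79.5% of thinned WT cells and 80% to 90.3% of thinned CF cells. These shares can include free RNA, whose part was not tested, since no cell class here is known to lack the gene. From day 2 to day 9 the ratio was 1.97 in WT (1.94 to 1.99) and 2.34 in CF (2.32 to 2.36).

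No cluster of at least 50 cells was without IGFBP7, and the lowest was WT cluster 21, at 119 CPM. CF cluster 11 had 4502 CPM, CF cluster 23 had 3982 and CF cluster 3 had 3053, against 2423 in the highest WT cluster, 23. The next WT clusters were 2 and 20, at 2164 and 1991 CPM. CF cluster 23 and WT cluster 20 are shallow, with medians of 3246 and 3398 UMIs per cell, and did not keep their deposited names. In centroacinar cells, CF exceeded WT on each day compared, at 1265 against 520 CPM on day 5, 2309 against 875 on day 7 and 2177 against 333 on day 9. Without CF cluster 11, led by fibroblast and stellate markers, CF was at 1264, 1939 and 1659 CPM. In ductal cells, CF was above WT on day 2, at 940 against 538 CPM, and below it afterwards, at 1025 against 1581, 995 against 1528 and 874 against 1783. When no cluster was set aside for its name, the CF ductal levels were 747, 978, 604 and 388 CPM. SOX2-low WT cells of all classes had 1407, 1365, 1338 and 1385 CPM, above the CF ductal level on each day.

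The 3 CF clusters highest in IGFBP7 also had the highest sums of fibroblast and stellate markers, mostly through VIM. CF clusters 11, 3 and 23 had the 3 highest sums of the 9 fibroblast and stellate markers, 1286, 481 and 394 CPM. In cluster 11, VIM was at 927, COL1A1 at 140 and ACTA2 at 129 CPM beside EPCAM at 190 and KRT8 at 816, so epithelial and mesenchymal markers were counted in the same cluster. In cluster 3, VIM made 463 of the 481 CPM, COL1A1 was at 14.4 and ACTA2 at 1.79 CPM, and COL3A1, DCN, LUM and PDGFRB were at 0. In cluster 23, VIM was at 272 and COL1A1 at 101 CPM. Over whole libraries the list summed to 17, 47.9, 44.8 and 60.5 CPM in WT and 24.2, 37.6, 287 and 292 CPM in CF, of which VIM made 232 and 261 CPM on days 7 and 9 in CF. PDGFRA of the same list went the other way, at 2.29 to 5.51 CPM in WT and 0.547 to 2.13 in CF, and was higher in WT on each day. All 9 of the markers had UMIs in CF on days 2, 7 and 9, while COL3A1 was at 0 in all 4 WT libraries and DCN and LUM were at 0 in CF on day 5. In an alternative chosen after the values were seen, the 3 clusters were left out of CF and WT was kept whole. Since they are also the 3 CF clusters highest in IGFBP7, a lower CF level of that gene follows from the choice. Clusters 3 and 11 also held 30.1% and 18.8% of the IGFBP2 UMIs of CF, and cluster 3 held 15.4% of its IGFBP3 UMIs. Lower CF levels of IGFBP2 and IGFBP3 on day 9 thus follow from the choice too. CF then had 773, 1048, 1109 and 801 CPM of IGFBP7 on days 2, 5, 7 and 9, and day 9 was 0.902 times the WT level. IGFBP3 on day 9 fell to 550 CPM in CF, 0.81 times WT. IGFBP2 fell to 15 CPM on day 9 and was still 22.7 times WT, and on days 2, 5 and 7 it was 24.3, 10.3 and 32.7 times WT.

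The balance of the abundant pair differed by genotype and day. IGFBP3 UMIs were 4.27 times those of IGFBP7 in WT on day 2 and 0.894, 1.79 and 0.764 times on days 5, 7 and 9. In CF the ratio was 0.419, 0.873, 0.591 and 0.521. The ratio was thus highest in WT on day 2 and lowest in CF on day 2. Over clusters, the median ratio of IGFBP7 to IGFBP3 was 2.84 in the 29 CF clusters, 3.03 in the 12 SOX2-low WT clusters and 0.735 in the other 27 WT clusters. Of those 27, 7 had at least 1000 CPM of IGFBP3 with under 500 CPM of IGFBP7, limits set after the values were seen, and in all 7 most cells came from day 2. No CF and no SOX2-low WT cluster of at least 50 cells had that combination. Pearson's r of the log2(CPM + 1) values of the 2 genes was 0.79 over the 29 CF clusters, 0.80 over the 12 SOX2-low and 0.74 over the 27 other WT clusters, and 0.52 over all 39 WT clusters pooled, as a description, since clusters of a genotype share libraries and were cut from the same cells.

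**Figure D3:**
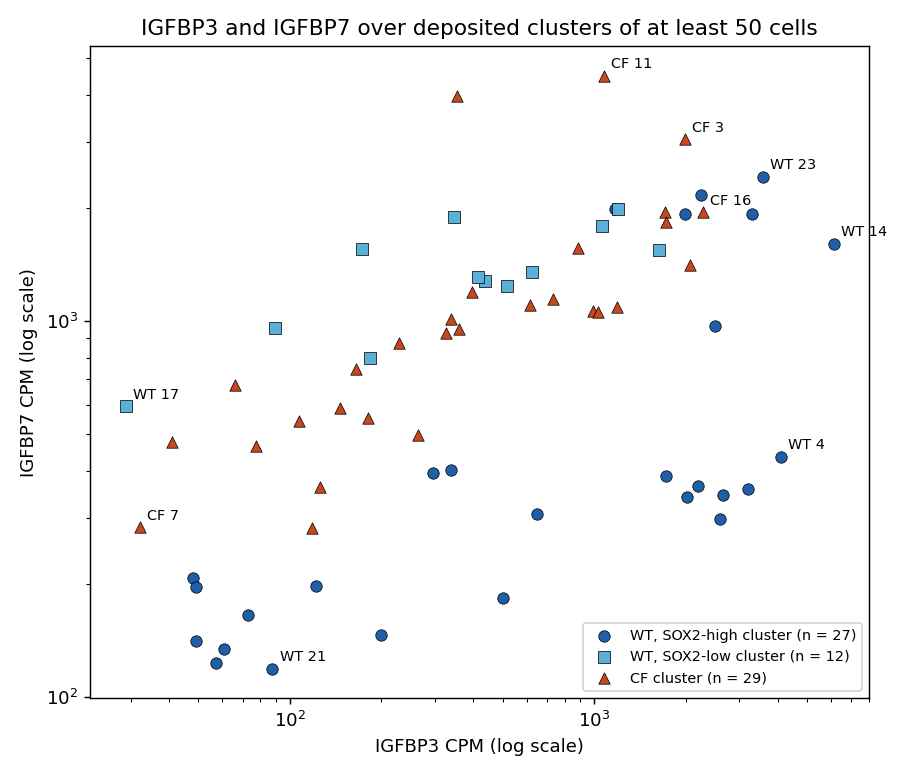
IGFBP3 CPM (x axis, log scale) against IGFBP7 CPM (y axis, log scale), each point 1 deposited cluster of at least 50 cells pooled over days. Circles are SOX2-high WT clusters, squares SOX2-low WT clusters and triangles CF clusters. The WT circles at lower right, with at least 1000 CPM of IGFBP3 and under 500 of IGFBP7, have no CF counterpart, and CF clusters 11 and 3 are at the top with 4502 and 3053 CPM of IGFBP7.

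How far the courses followed the make-up of the cultures was described by holding each cluster at its level over all days and letting the day's share of each cluster vary. For IGFBP3 in WT this gave 1974, 1084, 1587 and 742 CPM on days 2, 5, 7 and 9, where 1927, 1011, 1806 and 678 were measured. For IGFBP3 in CF it gave 338, 873, 1101 and 886 where 326, 923, 947 and 947 were measured. For IGFBP7 in CF it gave 784, 1065, 1739 and 1698 where 777, 1057, 1603 and 1818 were measured. IGFBP3 was furthest from the level of shares alone on day 7, above it in WT and below it in CF. IGFBP2 in CF departed from it late, with 31.1 CPM on day 7 and 30.9 on day 9 from shares alone where 20.7 and 40.1 were measured. Since 16 of 41 WT and 15 of 30 CF clusters drew over 80% of their cells from a single day, cluster and day cannot be told apart for those. Within the 13 WT clusters with at least 50 cells on both days 7 and 9, IGFBP3 was lower on day 9 in 11. The median change was -0.53 on the log2(CPM + 1) scale. From day 5 to day 7 IGFBP3 was higher in 13 of 15 such WT clusters, with a median change of 0.32. Over the same days it was lower in 6 of 6 CF clusters, with a median change of -0.39. Clusters of a genotype drew on the same library on each day, so these counts are not counts of replicates.

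**Figure D4:**
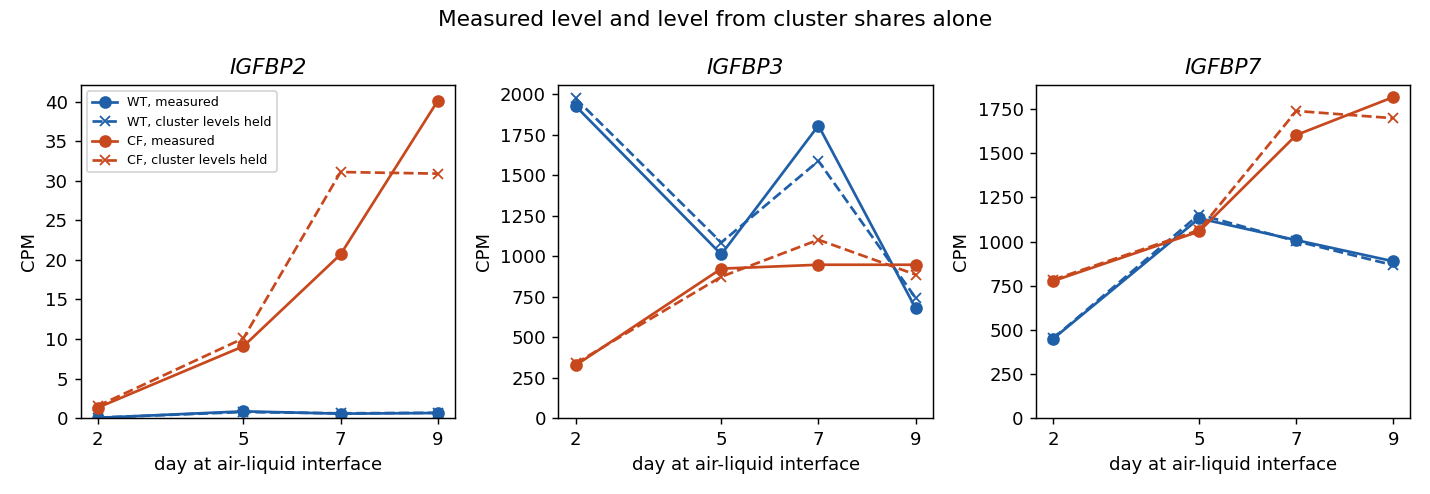
CPM (y axis, linear) of IGFBP2, IGFBP3 and IGFBP7 against day at the air-liquid interface for WT (blue) and CF (orange). Solid lines are the measured library levels and dashed lines the levels obtained when each cluster keeps its level over all days and only cluster shares vary. IGFBP7 runs close to its dashed line. On day 7 IGFBP3 lies above its dashed line in WT (1806 against 1587 CPM) and below it in CF (947 against 1101). IGFBP2 in CF was measured at 40.1 CPM on day 9 against 30.9 from shares alone.

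IGFBP4, IGFBP5 and IGFBP6 were scarce. IGFBP4, the PAPP-A substrate, had 12, 16, 11 and 8 UMIs in WT and 7, 9, 16 and 21 in CF on days 2, 5, 7 and 9. CF was 3.47 times WT on day 7 (95% interval 1.51 to 8.28) and 4.45 times on day 9 (1.89 to 11.6), while the intervals of days 2 and 5 spanned 1. No cell held more than 2 of its UMIs. The highest CF clusters were 23, 27 and 3, at 1.25, 1.08 and 1.07 CPM. Clusters 23 and 27 had 1 UMI each and cluster 3 had 15, so the order is within counting error. The highest WT clusters were 20, 5 and 23, at 0.961, 0.631 and 0.589 CPM, from 2, 9 and 3 UMIs.

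IGFBP5, a matrix-binding member best known from bone and muscle, had 3, 1, 23 and 2 UMIs in WT and 60, 4, 14 and 18 in CF. A few cells made these counts. In CF on day 2, 12 cells held the 60 UMIs and 1 cell of cluster 11 held 21 of them, and in WT on day 7, 4 cells held the 23 UMIs and 1 cell of cluster 14 held 13. CF cluster 11 had 5.42 CPM (95% interval 4.08 to 7.06) and was followed by clusters 3 and 16, at 1.29 and 0.653 CPM. WT cluster 14 had 1.97 CPM (1.22 to 3.02), and the next, clusters 26 and 0, had 0.138 and 0.0896 CPM from 1 and 2 UMIs. No IGFBP5 UMI was counted in 18 of 29 CF and 32 of 39 WT clusters. CF cluster 11, rich in COL1A1 and ACTA2, held 57.3% of the IGFBP5 UMIs of CF. No difference between genotypes is drawn from so few cells.

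IGFBP6, the IGF2-preferring member, had 11, 154, 75 and 52 UMIs in WT and 50, 48, 12 and 31 in CF on days 2, 5, 7 and 9. CF was above WT on day 2 (5.09 times, 95% interval 2.62 to 10.8) and below it on days 5 and 7 (0.441 and 0.382 times), while the interval of day 9 spanned 1. The day 7 ratio rests on 1 cell of WT cluster 18, which held 46 of the 75 WT UMIs, and without the top cell of each library it was 0.659 (0.26 to 1.48), beside 4.98, 0.476 and 1.32 on days 2, 5 and 9. WT clusters 10 and 18, deposited as centroacinar progenitor, had 5.27 and 5.14 CPM and cluster 38 had 4.87 CPM from 1 UMI. These are levels of single cells, since 1 cell held 47 of the 62 UMIs of cluster 10 and another held all 46 of cluster 18. The highest CF clusters were 23, 20 and 18, at 3.74, 3.34 and 2.26 CPM from 3, 13 and 22 UMIs. WT progenitors as a class had 2.19 CPM (1.82 to 2.62) against 0.611 (0.51 to 0.727) in ductal cells, but those same 2 cells held 93 of the class's 120 UMIs. Without the top cell of each library the classes were at 0.493 (0.325 to 0.718) and 0.526 CPM (0.432 to 0.633). Under that alternative, chosen after the values were seen, the mean difference of CF from WT over the 4 days moved from -0.16 to -0.02 on the log2(CPM + 1) scale.

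The genes whose profile over clusters was most like that of each member were ranked by the mean of the WT and CF Pearson r of log2(CPM + 1) over 39 and 29 clusters, among 8824 genes (8823 for IGFBP3 and IGFBP7) with at least 10 CPM in at least 3 clusters of each genotype. For IGFBP2 they were PRRX2, a homeobox factor, SLC16A12, a creatine transporter, and ST3GAL5, the GM3 ganglioside synthase, at 0.85, 0.81 and 0.81. For IGFBP3 they were TMEM108, WNT4, a secreted WNT ligand, and STK26, a kinase, at 0.91, 0.90 and 0.89. For IGFBP7 they included COL18A1, a basement membrane collagen, and CTXN1, both at 0.89. IGFBP4 had its highest values with COL4A2 and COL4A1, the collagen IV chains of basement membrane, at 0.87 and 0.83. These rest on 100 UMIs in all, with 0 in 21 of 39 WT and 15 of 29 CF clusters, and no pattern is drawn from them. The WT part of the IGFBP2 values likewise rests on 198 UMIs, with 0 in 21 of 39 clusters. The highest values for IGFBP5 and IGFBP6 were 0.61 (RSU1) and 0.57 (INTS6), too weak in such sparse counts to describe a pattern, as were PPIC and BLOC1S2 for IGFBP5 at 0.55 and 0.54, and RCAN1 and TERF2 for IGFBP6 at 0.47 and 0.46.

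The rest of the IGF pathway was read from a list of 31 genes, of which 24 had at least 30 UMIs. On the log2(CPM + 1) scale the median difference of CF from WT over these 24 was 0.01, -0.12, -0.04 and -0.04 on days 2, 5, 7 and 9, beside 0.00, -0.04, 0.10 and 0.06 over all 15921 genes. Called higher in CF were 1, 0, 4 and 2 of the 24 on those days, and called lower were 2, 4, 1 and 2. Over all 15921 genes, 3.59%, 2.15%, 4.47% and 3.23% were called higher and 3.83%, 4.13%, 2.95% and 3.42% lower. The 1 gene at least 2-fold apart in 1 direction on all 4 days was IRS2. It was lower in CF, as were 1.31% of all genes on all 4 days. Values of IRS1, IGF1, IGF2, IGFALS, STC1, STC2, PAPPA2, ADAM28, INS and IGFBP1 are given as pathway context and were chosen after the values were seen.

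IRS2, the adaptor that couples the insulin and IGF1 receptors to PI3 kinase, was at 231, 182, 218 and 344 CPM in WT and at 15.1, 16.5, 18.4 and 16.7 CPM in CF. The groups did not overlap, and WT was 15.3-fold above CF on day 2 (95% interval 14.5 to 16.1), 11-fold on day 5 (10.4 to 11.7), 11.9-fold on day 7 (11 to 12.9) and 20.7-fold on day 9 (19.3 to 22.1). IRS1, the other main adaptor, was far closer, at 3.44 to 5.85 CPM in WT and 4.42 to 8.42 in CF. GRB14, an adaptor that inhibits the activated receptors, was higher in CF on every day, at 34.1, 47.7, 41.6 and 39.8 CPM against 10.6, 28.2, 18.1 and 19.9 in WT.

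**Figure D5:**
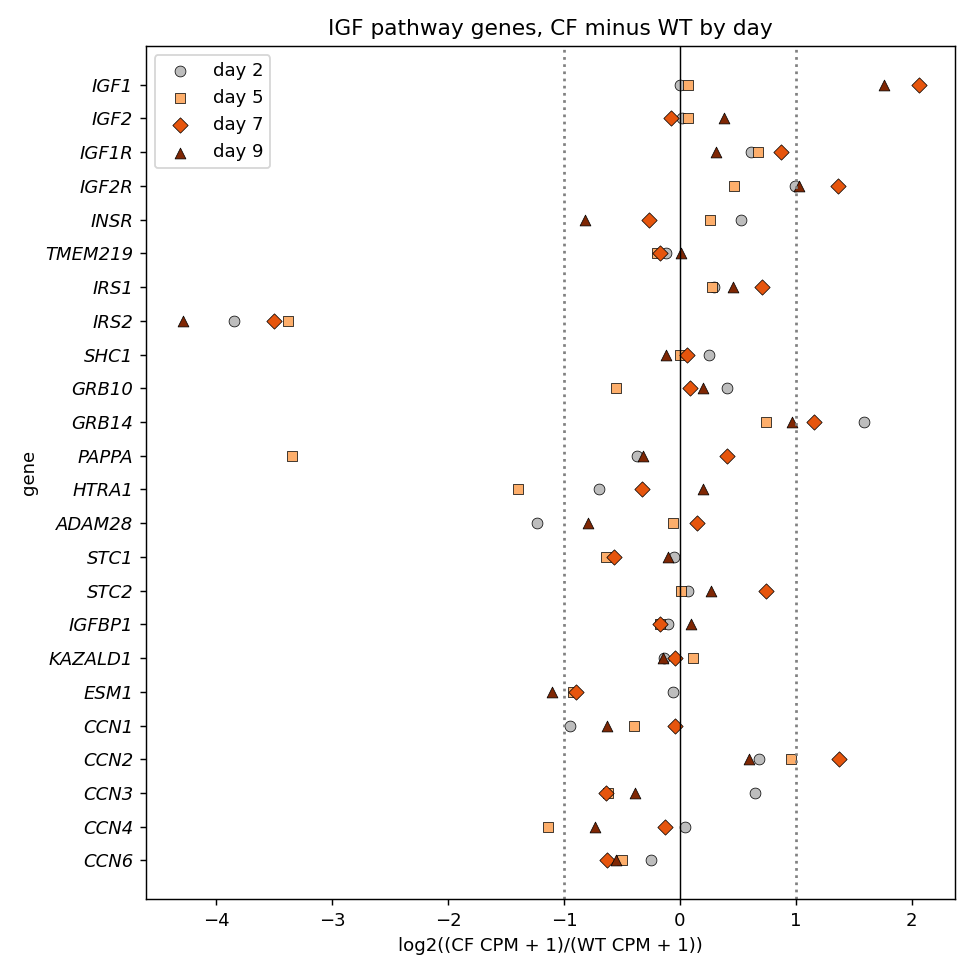
Difference of CF from WT on the log2(CPM + 1) scale (x axis) for the 24 genes of the IGF pathway list with at least 30 UMIs (y axis), 1 symbol per day. Dotted lines mark 2-fold. IRS2 lies between -4.29 and -3.38 on all 4 days, and PAPPA at -3.35 on day 5 but between -0.37 and 0.41 on the other days.

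Ligands were scarce. INS had 0 UMIs, IGF2 had 64 over all libraries, and IGF1 was at 0, 0.0889, 0.145 and 0.354 CPM in WT and 0, 0.14, 3.77 and 3.6 CPM in CF on days 2, 5, 7 and 9. IGF1 was called higher in CF on days 7 and 9, at 26.1 times (95% interval 14.4 to 51.8) and 10.2 times (6.88 to 15.5) the WT level, from 131 and 180 UMIs. The receptors were present in all libraries. IGF1R, which signals for both IGFs, was at 91, 76.8, 68.7 and 96.1 CPM in WT and 139, 122, 126 and 119 in CF, and IGF2R, which clears IGF2, at 31.4, 45.5, 38.6 and 43.9 in WT and 63.5, 63.5, 101 and 90.4 in CF. For both genes every CF library was above every WT library. IGFALS, the acid labile subunit that completes the ternary complex with IGFBP3, had 2 UMIs in all.

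Of the proteases that cut IGFBPs, PAPPA was at least 2-fold higher on day 9 than on day 2 in both genotypes and HTRA1 and ADAM28 in CF. PAPPA, which releases IGF from IGFBP4, went from 0.567 CPM on day 2 to 52.1, 39 and 87.7 in WT and from 0.215 to 4.21, 52.1 and 70.2 in CF. On day 5 WT was 12.4-fold above CF (95% interval 11 to 13.9), and on day 7 CF was 1.34-fold above WT (1.26 to 1.41). HTRA1, a serine protease with IGFBPs among its substrates, was at 101, 170, 162 and 156 CPM in WT and 61.8, 63.8, 129 and 180 in CF. ADAM28, a metalloprotease that cuts IGFBP3, was at 4, 3.38, 3.62 and 7.4 CPM in WT and 1.13, 3.19, 4.12 and 3.84 in CF, and was called lower in CF on day 2. STC1 and STC2, which inhibit PAPP-A, were under 1 CPM in every library, and PAPPA2 had 0 UMIs.

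Genes that share the IGFBP domain were led by CCN2 and CCN1, matricellular targets of YAP. CCN2 was at 180, 472, 566 and 836 CPM in WT and 290, 919, 1464 and 1268 in CF, and CCN1 at 233, 328, 380 and 570 in WT and 121, 248, 369 and 367 in CF. CCN2 was higher and CCN1 lower in CF than in WT on each day, though on day 7 CCN1 differed by only -0.04 on the log2(CPM + 1) scale. IGFBP1, the neighbour of IGFBP3 in the annotation, stayed under 1 CPM in all 8 libraries, with 102 UMIs in total.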

How the data were processed

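Single-cell libraries (10x Genomics) of WT and CF PDE on 4 days were aligned and counted by the authors with Cell Ranger 5.0.1 against the ferret build ASM1176430v1.1 with an improved annotation. The deposited values are raw UMI counts per gene and barcode, and a deposited table of retained cells gives total counts, the percent of mitochondrial UMIs, cluster and class, made with R 4.1.2 and Seurat after filters on genes and mitochondrial percent and doublet removal. Summed UMIs matched the deposited totals within 0.1% in 32868 of 32945 cells. Lineage scores and a normalized table were not used.

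The members and lists were chosen with earlier results of these data known. UMIs were summed per library, cluster and class with Python 3.11.15, and CPM, exact Poisson intervals of CPM, exact conditional intervals of ratios and Clopper-Pearson intervals of shares were computed at 95%. The depth was 34735952 to 114585136 UMIs a library. Genes with at least 30 UMIs in total were compared as log2(CPM + 1), and 2-fold was called. No test was run, since each genotype and day had 1 library, and a fit of genotype and day over the 8 libraries was not made. The intervals and calls were checked on simulated Poisson counts. Changes were put only into genes with many UMIs, and no spread between cultures was simulated. Recovery of changes at low counts was thus not checked. Cells were thinned to 3000 UMIs for shares, leaving out shallower ones. Deposited cluster names were set aside where the 10 top genes by fold included more markers of a different class, or where a cluster was over 3 times shallower than its libraries and no marker of its class was among those genes. All members are named, with the 3 highest clusters per genotype, the 3 most similar genes (2 of these are not reported here), and pathway genes 2-fold apart on all 4 days or among the 8 of highest mean CPM. TMM (edgeR 4.0.16) and DESeq2 1.42.0 factors were alternatives, as were other pseudocounts, filters and cell sets.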

Additional observations from a re-analysis of the deposited data

Results flagged for a closer look

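The effects of IGFBP3 over whole libraries pointed opposite ways in the 2 genotypes. In SOX2-low WT cells, pooled over clusters, IGFBP3 was at 122 CPM on day 2 and 723 on day 9, in the direction of CF. In the other WT cells it went from 2192 to 659 CPM. The clusters that make up each pool differ between these days, and the part of this was not tested. Over whole libraries IGFBP3 changed from day 2 to day 9 by -1.50 on the log2(CPM + 1) scale in WT. In CF the change was 1.54, and the difference between these changes was not tested. On the same scale its difference of CF from WT was -2.56 on day 2, -0.13 on day 5, -0.93 on day 7 and 0.48 on day 9, so that the sign on day 9 was the opposite of the other days.

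IGFBP7 also changed sign between days, with differences of CF from WT of 0.78, -0.10, 0.67 and 1.03 on days 2, 5, 7 and 9, and this was not tested. IGFBP6 did so at low counts, with 0.44, -0.59, -0.50 and 0.01, where single cells held up to 47 of a library's UMIs, and this too was not tested.

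Barcodes that carry no deposited class held a further IGFBP6 signal in WT on day 5, at 62.9 CPM against 1.52 CPM in the retained cells of that library. Of 1509 such barcodes, 29 had an IGFBP6 UMI, and 11 of them held 676 of the 729 UMIs. The highest of the 11 had 133 IGFBP6 UMIs among 19929, with 24 of EPCAM, 10 of VIM and 0 of COL1A1, COL3A1, DCN and LUM. In the other 7 libraries barcodes of this kind held 0 to 29 IGFBP6 UMIs.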

How the results depend on the processing

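Values here are on the log2(CPM + 1) scale, as CF minus WT averaged over the 4 days or as day 9 minus day 2, and where one moved the cause was not tested. Restricting the analysis to cells of at least 3000 UMIs moved none of the 6 averages and none of the 24 single-day differences beyond counting error. No paired test by day was run. The labels give no replicate numbers, and CF and WT were set side by side within each day. Leaving out a library was not run, since it would empty its group.

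Scaling shifted the median of all genes by up to -0.14 (day 7). With TMM factors the average was -0.84 for IGFBP3 and 0.55 for IGFBP7, and the change over time was 3.97 for IGFBP2 in CF, -1.63 and 1.31 for IGFBP3 in WT and CF, and 0.85 and 1.00 for IGFBP7. With DESeq2 size factors the averages were -0.84 for IGFBP3 and 0.54 for IGFBP7. A pseudocount of 5 CPM gave averages of 1.70 for IGFBP2, 0.04 for IGFBP4 and 0.07 for IGFBP5, and changes over time of 0.16 and 2.83 for IGFBP2 in WT and CF, 0.10 for IGFBP4 in CF and 0.14 for IGFBP6 in WT.

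With all deposited barcodes the averages were 2.91 for IGFBP2, -0.81 for IGFBP3, -0.58 for IGFBP6 and 0.58 for IGFBP7, and the changes over time 1.48 for IGFBP3 in CF and 0.92 and 1.15 for IGFBP7 in WT and CF. With each cell weighted equally the averages were 3.22, -0.67 and 0.62 for IGFBP2, IGFBP3 and IGFBP7. Without the cluster that held most UMIs of the gene, the averages were -0.77 for IGFBP3 and 0.51 for IGFBP7, and the changes over time 3.58 for IGFBP2 in CF, -1.54 for IGFBP3 in WT, and 0.78 and 0.84 for IGFBP7 in WT and CF. That setting turned IGFBP5 over time in CF from -0.22 to 0.38 and IGFBP7 on day 5 from -0.10 to 0.04.

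Against SOX2-low WT cells only, IGFBP3 turned from -0.79 to 0.50 on average, with 1.40, 0.16 and 0.06 on days 2, 5 and 7, and IGFBP7 turned from 0.60 to -0.14, with -0.86 on day 2. IGFBP2 was then 2.53 and IGFBP6 -0.31.

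The next 4 alternatives were chosen after seeing the data. CF clusters 3 and 11, left out in the first, are also among the 3 CF clusters highest in IGFBP2. Without CF clusters 3, 11 and 23, chosen for their fibroblast and stellate markers and also the CF clusters highest in IGFBP7, the averages were 2.61, -1.01, 0.05, 0.08 and 0.16 for IGFBP2, IGFBP3, IGFBP4, IGFBP5 and IGFBP7, day 9 turned to -0.30 for IGFBP3 and -0.15 for IGFBP7, and the changes over time in CF were 2.82, 0.76, 0.21 and 0.05 for IGFBP2, IGFBP3, IGFBP4 and IGFBP7. Without the cell with most UMIs in each library the averages were 0.22 for IGFBP5 and -0.02 for IGFBP6. Without WT cluster 12, IGFBP3 in centroacinar cells on day 7 turned from -0.64 to 1.32. Without CF cluster 11, the 9 differences of CF from WT in centroacinar cells on days 5, 7 and 9 kept their direction for IGFBP2, IGFBP3 and IGFBP7, and that of IGFBP7 on day 9 went from 2.71 to 2.31. When no cluster was set aside for its name, 5 of 6 ductal levels moved beyond counting error, IGFBP7 in CF from 963 to 753 CPM and IGFBP3 in CF from 491 to 344 CPM.

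A filter of at least 10 CPM in a library lowered 7 of the 14 counts of called genes by over 1.5 times. CF against WT, those lower on days 2, 5 and 9 went from 610 to 370, 657 to 408 and 545 to 341, and those higher on days 5, 7 and 9 from 343 to 220, 712 to 424 and 514 to 311. Those higher on day 9 than on day 2 in CF went from 961 to 601. This filter also left fewer genes to compare, so these are counts and not shares of the genes compared. No filter left all 14 counts within 1.5 times.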
